A study of Homo sapiens with 12 samples.

Results

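The protocadherin genes were followed in H82 and H211, a pair of established human small cell lung cancer lines, with and without inhibition of the histone demethylase LSD1. Members were all symbols of the deposited table that name a clustered protocadherin (alpha, beta or gamma) or a numbered solitary one, leaving out PCDH11X, PCDH11Y and PCDH19. The rule found 73 of 56508 symbols. They were 13 alpha genes and 2 alpha C-type genes, 16 beta genes, 12 gamma A, 7 gamma B and 3 gamma C-type genes, 10 solitary genes, 6 pseudogenes of the clusters and 4 antisense RNAs of PCDH9. The 4 groups were H82 with ORY-1001, its H82 control, H211 with ORY-1001 and its H211 control, each with 3 libraries of poly(A)-selected RNA, and all cells carried the genotype label WT. ORY-1001, an LSD1 inhibitor, was given at 1 µM, and the controls were labelled PBS. Sample labels give 7 days of treatment and the protocol gives 10 days, and which applied was not settled. Whether the replicates came from separate cultures is not said, so a p-value here measures the spread among these libraries, which may be only technical.

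Protocadherins are adhesion receptors of the cadherin superfamily, best known from neurons, where they bind the same isoform on a touching cell and let a neuron tell its own branches from those of others. The clustered genes stand in tandem on chromosome 5q31. In the alpha and gamma clusters each variable exon has its own promoter and is spliced to shared constant exons that encode a common cytoplasmic tail, whereas each beta gene is complete without them. Each neuron uses its own small set of these promoters, in mouse and human the C-type genes at the ends of the alpha and gamma clusters are used more widely, and the choice is known to depend on DNA methylation and on CTCF and cohesin. Solitary protocadherins lie outside these clusters, mostly on other chromosomes, and have roles of their own in cell sorting and migration. PCDH1 and PCDH12 lie on chromosome 5 as well, past the gamma cluster.

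Promoter sequences from RefSeq (GRCh38.p14, 250 bases before to 50 bases after the annotated start) were at hand for 58 of the 73 members. They show the sequence that sits in front of most clustered genes, whose core CGCT is known from many protocadherin promoters. Searching both strands for GGTGGCGCT found it in 13 of 14 beta promoters and in 0 promoters of the other members, against 0.501% of 34943 promoters of the same length. It began at positions -84 to -2 relative to the start. TGTCGCT stood in 10 of 11 alpha promoters, 3 gamma A promoters, the beta promoter of PCDHB4 and, on the other strand, the promoter of the solitary gene PCDH15, against 1.75% of all promoters. Both motifs end in CGCT, which alone is found in 69.9% of all promoters, and both were chosen after reading these promoters. The beta windows below, from the plus strand of chromosome 5, run from highly to barely expressed genes, with the motif in capitals.
PCDHB5: gacgcctGGTGGCGCTgcaggctaag
PCDHB8: gacccgtGGTGGCGCTgcaggataag
PCDHB4: gacgcagGGTGGCGCTgcaggctaag
PCDHB14: gacacatGGTGGCGCTacaggataag
PCDHB16: aacgcgtGGTGGCGCTgcaggttaag
PCDHB10: gccacacGGTGGCGCTgcaggctaaa
PCDHB13: gacgcgtGGTGGCGCTgcaggataag
PCDHB12: gacgcgtGGTGGCGCTgcaggataat
PCDHB7: aacgcaaGGTGGCGCTgctggctaaa
PCDHB15: aacgcatGGTGGCGCTgcaggctaag
Among the 14 beta genes with a promoter entry, GGTGGCGCT was present in 8 of 8 that were tested for expression changes and in 5 of 6 that stayed too low to test. PCDHB7 and PCDHB15, the last of the lines, belong to those low genes. The alpha windows are given for PCDHA11 and PCDHA12, which were tested, and for PCDHA2 and PCDHA8, which were not, with TGTCGCT in capitals.
PCDHA11: ggcgcaaggTGTCGCTctttacttgg
PCDHA12: gtcacatgaTGTCGCTctacactcag
PCDHA2: gccacatgaTGTCGCTgtccaccata
PCDHA8: gccacatgaTGTCGCTgtctaccaag
PCDHA9, expressed in H211, had no TGTCGCT in its window, while all 8 untested alpha genes with an entry had it. The promoters of the genes on which the results turn most are given whole, plus strand, with CGCT on that strand in capitals.
PCDHB5, chr5:141134956-141135255: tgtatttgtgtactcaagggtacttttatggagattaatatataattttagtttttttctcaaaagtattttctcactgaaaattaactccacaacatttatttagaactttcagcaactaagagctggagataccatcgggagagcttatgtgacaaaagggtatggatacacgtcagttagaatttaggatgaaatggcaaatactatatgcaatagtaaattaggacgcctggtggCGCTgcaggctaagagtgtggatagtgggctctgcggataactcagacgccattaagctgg
PCDHA11, chr5:140868707-140869006: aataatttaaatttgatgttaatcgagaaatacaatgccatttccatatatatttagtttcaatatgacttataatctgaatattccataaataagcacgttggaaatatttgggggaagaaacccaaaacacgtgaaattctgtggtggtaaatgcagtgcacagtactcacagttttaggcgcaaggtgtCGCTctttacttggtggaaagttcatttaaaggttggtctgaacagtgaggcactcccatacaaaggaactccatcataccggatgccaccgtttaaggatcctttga
PCDHAC2, chr5:140966226-140966525: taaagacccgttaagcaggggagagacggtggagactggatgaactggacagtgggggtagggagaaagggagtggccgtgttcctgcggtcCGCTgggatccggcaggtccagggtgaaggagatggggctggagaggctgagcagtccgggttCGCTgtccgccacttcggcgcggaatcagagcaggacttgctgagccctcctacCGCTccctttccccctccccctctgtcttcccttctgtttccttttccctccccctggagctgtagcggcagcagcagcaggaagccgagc
These are the most abundant member in H211 (PCDHB5) and the pair with the firmest response to ORY-1001 in H82. The PCDHAC2 promoter held CGCT at 3 places on this strand and 1 on the other, and neither longer motif. A match is a description of letters and does not mark a used site.

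Values are the deposited rescaled TPM, a read density per transcript length scaled to the library total and then adjusted between libraries. They are given as mean ± SD over 3 libraries. As length is accounted for, levels can be compared between genes, but less surely between clustered members, which share sequence as given below. Changes were tested as log2(TPM + 1) with limma over 15456 genes at 1 or more in at least 3 of the 12 libraries, with Benjamini-Hochberg adjustment, and called at an adjusted p under 0.05. Depth is unknown, and a log2 fold change on this scale understates the change of low genes. In bulk RNA, fewer cells with a transcript and less of it per cell cannot be told apart. Across genes, libraries within a group had r = 0.9881 to 0.9912 with each other, and libraries of different lines 0.7861 to 0.8069. The line factors fitted the labels: NEUROD1 was at 1.69 ± 0.366 TPM in H211 controls and 137 ± 2.16 TPM in H82 controls, and POU2F3 at 281 ± 3.91 and 2.31 ± 0.478 TPM. KDM1A, which encodes LSD1, was at 181 to 195 TPM in all 12 libraries, so its transcript does not report on the inhibitor. Earlier work on this table set apart 4 libraries by blood cell transcripts (H82 ORY-1001 replicate 3, H211 ORY-1001 replicate 3, H211 control replicates 1 and 2). The summed level of 11 such genes ran from 28.6 to 140.7 TPM in H82 with ORY-1001 and 41.0 to 55.6 TPM in H82 controls, and from 27.7 to 46.1 TPM in H211 with ORY-1001 and 42.1 to 246.8 TPM in H211 controls. HBB was at 0 in every library of 3 of the 4 groups. MPO, a granule enzyme of myeloid cells, was higher in the treated H82 libraries, at 8.71, 8.55 and 24.3 TPM with ORY-1001 and 0.0284 to 0.0849 TPM in controls. It was the 1 of 7 tested genes of the list called there (limma, adjusted p = 0.0141). Of these 7, 3 had a positive and 4 a negative log2 fold change in H82 (median -0.408). The globin transcript HBG2 was at 0, 0.120 and 53.0 TPM with ORY-1001 and 23.9, 28.2 and 22.4 TPM in H82 controls. In H211 MPO did not follow the drug, at 0.207, 0.192 and 8.57 TPM with ORY-1001 and 24.3, 0.493 and 0.758 TPM in controls. LYZ, lysozyme, was at 15.98, 18.7 and 0.583 TPM with ORY-1001 and 0.198 to 0.363 TPM in H82 controls (adjusted p = 0.135). H82 ORY-1001 replicates 1 and 2, which hold both transcripts, are not among the 4 libraries, so H82 values without those 4 still include them. The sum of 5 stromal markers was 64.8 to 71.1 TPM in H211 with ORY-1001 and 5.85 to 6.13 TPM in H211 controls, and at most 4.33 TPM in H82. DCN gave most of the H211 sums, at 63.9 ± 3.63 TPM with ORY-1001 and 4.10 ± 0.282 TPM in controls, a ratio of 15.6. The 3 endothelial markers summed to at most 1.33 TPM. The part of these transcripts in the results was not tested.

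Of the 73 members 20 could be tested, 15 clustered and 5 solitary. The other 53 stayed low, 49 of them below 1 TPM in every library, and the 4 antisense RNAs of PCDH9 were listed at 0 throughout. Just inside the filter lay PCDHB13, at 1 TPM or more in 3 libraries; just outside lay PCDHA8, with 2 such libraries, and PCDH7, PCDHGB2 and PCDHGC4, with 1 each. The highest value of any untested member was 1.22 TPM. How the authors divided reads between near-identical members is not known. Of the 31-base words of its transcripts, PCDHB8 shared 56.1% with other members, PCDHA11 53.6%, PCDHAC2 45.2%, PCDHGC3 39.1% and PCDHB5 19.8%. The clustered levels are therefore uncertain, by an amount that these shares do not give. The tested solitary genes shared at most 0.0839%. In GENCODE 29 (GRCh38), the alpha genes share constant exons at chr5:140978949-140979007 and chr5:140982475-140982563 (15 of 15 genes) and chr5:141009627-141012344 (14 of 15), and the gamma genes at chr5:141494807-141494865 and chr5:141505393-141505481 (22 of 22).

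**Figure D1:**
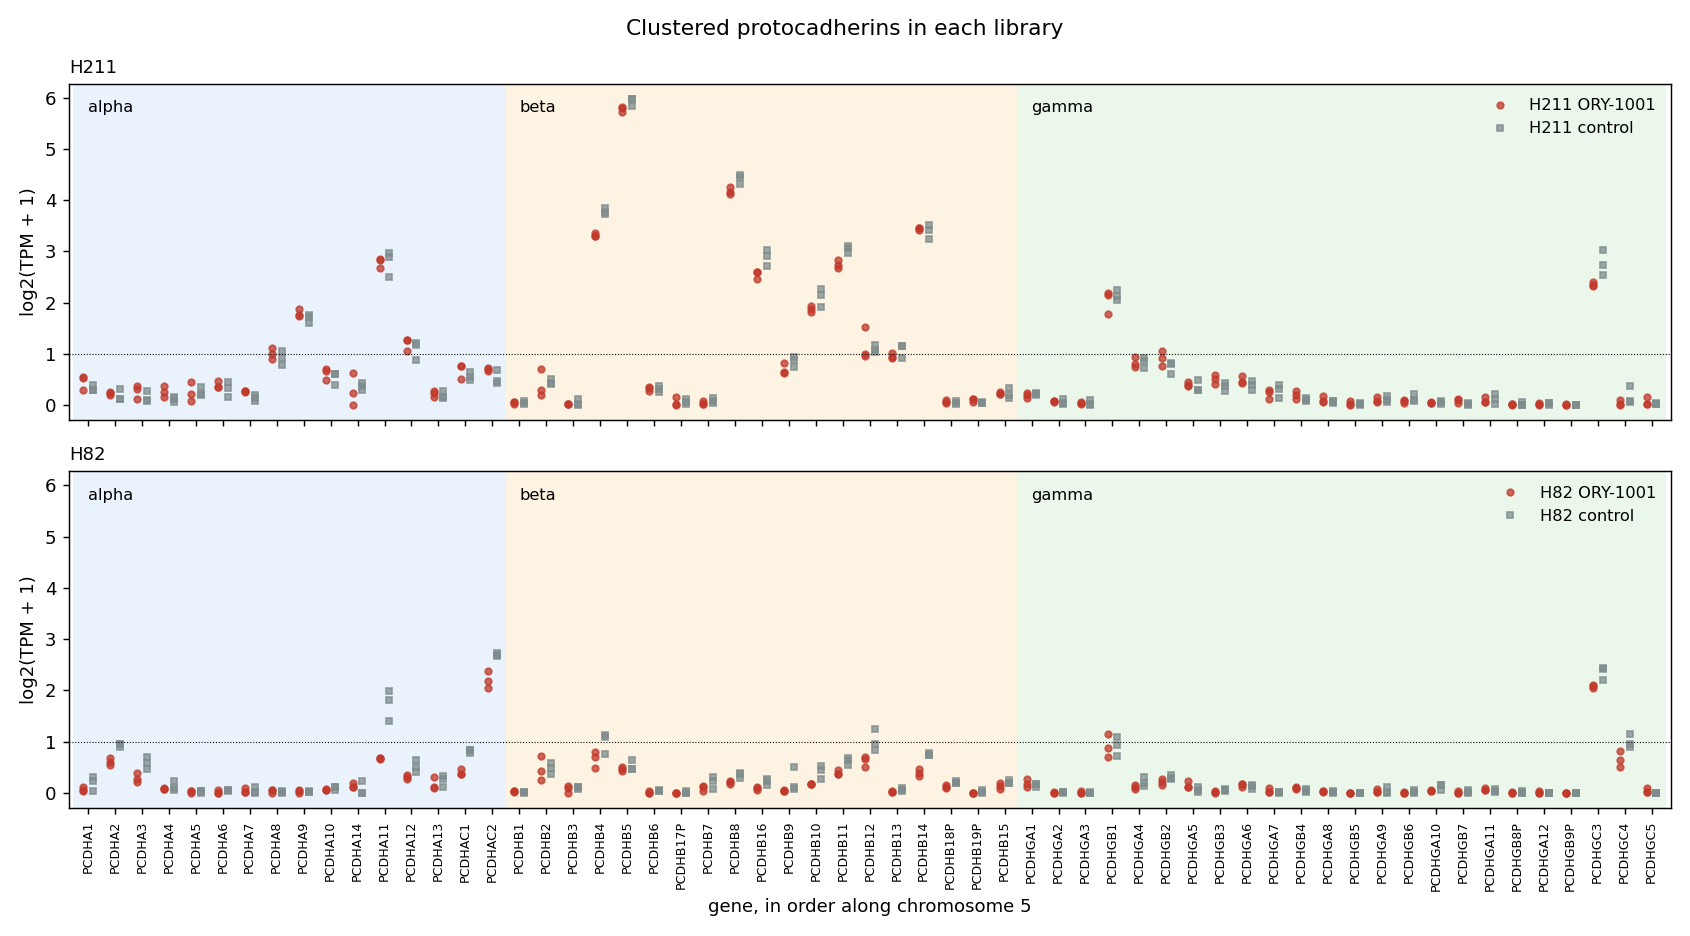
Level of each clustered protocadherin (x axis, in order along chromosome 5) in every library, as log2(TPM + 1); circles are ORY-1001 and squares control libraries, with H211 above and H82 below, and the dotted line marks 1 TPM. In H211 the beta gene PCDHB5 stands highest, at 51.9 to 61.8 TPM over 6 libraries, while in H82 PCDHAC2 and PCDHGC3 stand highest.

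The repertoires of both lines differed before any drug. In H211 controls 17 members had a mean of 1 TPM or more, against 10 in H82 controls. The beta cluster summed to 123.6 ± 7.81 TPM in H211 controls and 5.48 ± 0.484 TPM in H82 controls, a 22.5-fold difference. The alpha cluster summed to 12.9 ± 1.98 and 11.04 ± 0.74 TPM, the gamma cluster to 12.7 ± 0.877 and 6.91 ± 0.394 TPM, and the 10 solitary genes to 16.3 ± 0.377 and 10.1 ± 0.721 TPM, in H211 and H82 controls. The beta genes thus set the lines apart in summed level far more than the other clusters did.

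PCDHB5 (chr5:141135218-141138625, plus strand), a single-exon beta gene, made up 48.5% of the beta sum in H211 controls. It was at 61.7, 61.8 and 56.2 TPM in the H211 controls and at 0.383, 0.379 and 0.564 TPM in the H82 controls, a 135.6-fold difference (log2 difference 5.40, SE 0.0723, adjusted p = 1.07e-13). PCDHB5 was kept for testing through H211 alone, so this p-value is not independent of that choice. PCDHB8 was at 20.5 ± 1.36 TPM in H211 controls and 0.2702 ± 0.05003 TPM in H82 controls, 75.9-fold apart. PCDHB5 and PCDHB8 in H82 were thus at traces of their H211 level, 0.737% for PCDHB5. Of 1381 genes at 100 TPM or more in H211 controls, 27 were below 1% of that in H82 controls and the lowest above 0 was at 0.483%. What part of such a trace was transcribed in H82 was not tested.

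Other beta genes followed at lower levels in H211. PCDHB4, PCDHB14, PCDHB11 and PCDHB16 averaged 12.7, 9.52, 7.26 and 6.40 TPM in H211 controls, against 1.00, 0.685, 0.537 and 0.165 TPM in H82 controls. PCDHB12 was the exception among the 9 tested beta genes, at 1.14 ± 0.109 TPM in H211 controls and 1.03 ± 0.303 TPM in H82 controls, with overlapping libraries and adjusted p = 0.613. In H211 controls the neighbours in the order PCDHB14 and PCDHB11 did not overlap, with 8.45 to 10.5 against 6.87 to 7.56 TPM, whereas PCDHB11 and PCDHB16 did overlap, PCDHB16 running from 5.55 to 7.16 TPM.

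PCDHA11 was the highest of the 13 alpha genes outside the C-type in both lines, with 49.8% of their sum in H211 controls and 49.5% in H82 controls, and the lines differed more in PCDHA9 and PCDHAC2. PCDHA9 averaged 2.25 ± 0.186 TPM in H211 controls and 0.0155 ± 0.00971 TPM in H82 controls, and PCDHA11 averaged 5.96 ± 1.16 and 2.38 ± 0.680 TPM. PCDHAC2 (chr5:140966235-141012344), the C-type gene nearest the constant exons, ran the other way, at 0.385, 0.608 and 0.342 TPM in H211 controls and 5.41, 5.37 and 5.59 TPM in H82 controls (12.3-fold higher in H82, log2 difference -2.17, SE 0.107, adjusted p = 2.75e-09). PCDHAC2 was kept for testing through H82 alone, so this p-value is not independent of that choice. It made up 49.5% of the alpha sum in H82 controls. PCDHGC3, a gamma C-type gene, was closer in level, at 5.86 ± 1.22 TPM in H211 controls and 4.10 ± 0.439 TPM in H82 controls, and was called higher in H211 (1.43-fold, adjusted p = 0.00619).

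The solitary genes split as well. PCDH20 (13q21) was at 8.89, 9.20 and 9.18 TPM in H211 controls and 0.0537, 0.0398 and 0.158 TPM in H82 controls. PCDH10, which in mouse joins N-cadherin contacts to the WAVE complex, was at 5.32 ± 0.982 and 1.87 ± 0.361 TPM. PCDH18 and PCDH8 were instead higher in H82, at 0.145 ± 0.0911 and 0.0114 ± 0.00681 TPM in H211 controls and 4.43 ± 0.638 and 1.29 ± 0.326 TPM in H82 controls. Both were kept for testing through H82 alone, and PCDH20 through H211 alone. PCDH9 averaged 1.20 ± 0.710 TPM in H211 controls and 1.99 ± 0.252 TPM in H82 controls, with overlapping libraries and adjusted p = 0.0294. Its call was lost without H82 control replicate 1 (0.0843) or 2 (0.0683) or H211 control replicate 1 (0.0965) or 2 (0.131), and the sign turned to 0.015 (adjusted p = 0.938) without the 4 libraries set apart by blood transcripts.

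Between the controls 15 of the 20 tested members were called higher in H211 and 4 lower, where 39.7% and 40.8% of all tested genes were called higher and lower and 80.5% in either direction (limma). In 15 members all H211 controls lay above all H82 controls and in 3 below, against 40.4% and 41.3% of all genes. The median log2 difference over the tested members was 1.18, against -0.02 over all genes. Of the 20 members 10 were below 1 TPM in every H82 library and passed the filter through H211 alone, and 3 through H82 alone, so these counts are partly fixed by the filter and nothing is read from them.

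**Figure D2:**
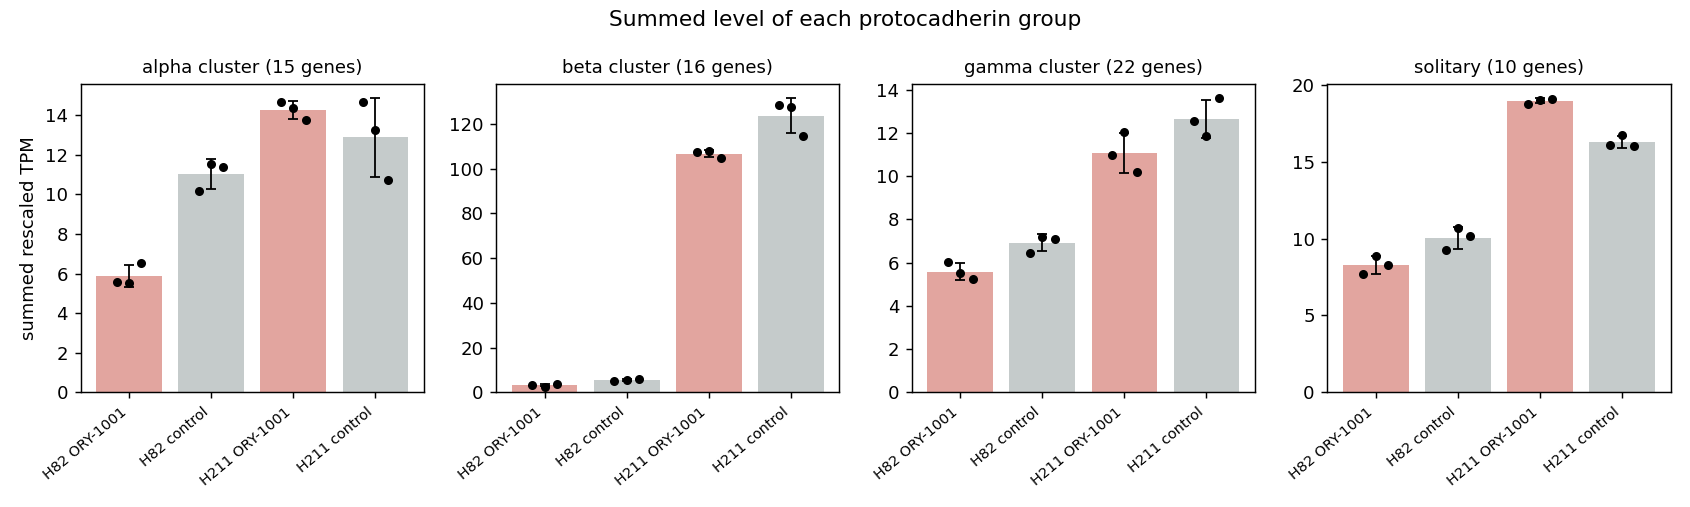
Summed rescaled TPM of the alpha, beta and gamma clusters and the solitary genes (y axis, linear, from 0) in the 4 groups (x axis); bars are means over 3 libraries, error bars SD and points libraries. The alpha sum was 5.88 ± 0.549 TPM in H82 with ORY-1001 and 11.04 ± 0.74 TPM in H82 controls, and the beta sum is over 100 TPM in both H211 groups.

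In H82 the summed levels of the alpha, beta and gamma clusters and of the solitary genes were each lower in every ORY-1001 library than in any control, with the smallest ratios for alpha and beta; the sums were not tested. The alpha sum was 5.88 ± 0.549 TPM with ORY-1001 and 11.04 ± 0.74 TPM in controls, a ratio of 0.533. PCDHA11 and PCDHAC2, which share the alpha cytoplasmic tail, both fell. Members with a mean of 1 TPM or more numbered 6 with ORY-1001 and 10 in controls, and 3 of the 4 that differ (PCDHB4, PCDHB12 and PCDHGC4) had control means within 5% of that level. Over all tested members 7 were called lower and 1 higher, 35% and 5% of 20, where 23.9% and 19.1% of all tested genes were called lower and higher and 43% in either direction. In 11 members all treated libraries lay below all controls and in 1 above, against 28.7% and 23.6% of all genes. The median log2 fold change was -0.22 over the tested members and -0.02 over all genes, and 18 of 20 members had a negative one. Of the 20 members 10 were below 1 TPM in every H82 library, so their sign rests on low values. In the same treated libraries MPO was higher, and 4 of 7 tested blood cell transcripts had a negative log2 fold change. The part of these transcripts in the values was not tested.

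PCDHA11 (chr5:140868183-141012344) was at 0.596, 0.601 and 0.583 TPM with ORY-1001 and 1.64, 2.98 and 2.53 TPM in H82 controls. Every treated library lay below every control, and the treated values were nearly equal. The mean was 4.02-fold lower, at adjusted p = 0.000231 (log2 fold change -1.07, SE 0.156), and the call held in 21 of 21 alternatives. PCDHA11 gave 30.4% of the sum of the 13 alpha genes outside the C-type with ORY-1001 and 49.5% in controls.

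PCDHAC2 was at 3.52, 3.10 and 4.22 TPM with ORY-1001 and 5.41, 5.37 and 5.59 TPM in H82 controls, again without overlap. Its mean fell 1.51-fold (log2 fold change -0.49, SE 0.107, adjusted p = 0.00321), also called in 21 of 21 alternatives. Since the alpha sum fell more than PCDHAC2 did, PCDHAC2 took 61.5% of it with ORY-1001 and 49.5% in controls.

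PCDHA12, another alpha gene, was at 0.197 to 0.266 TPM with ORY-1001 and 0.320 to 0.551 TPM in controls, without overlap, and did not pass the test (log2 fold change -0.21, adjusted p = 0.175). PCDHA9 was at most 0.0370 TPM in all H82 libraries, too low to read a change.

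**Figure D3:**
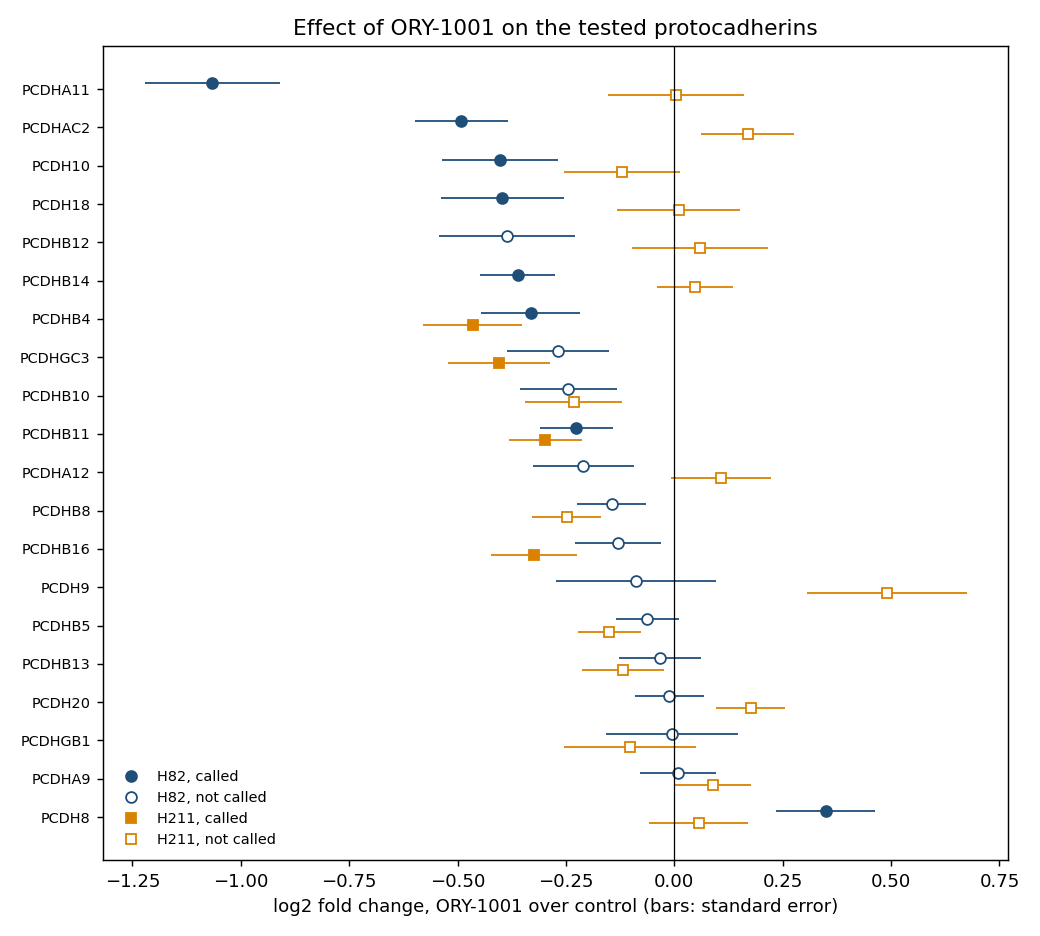
Effect of ORY-1001 on each of the 20 tested protocadherins (rows) as log2 fold change of TPM + 1 over control with its standard error (x axis), for H82 (circles) and H211 (squares); filled symbols passed an adjusted p of 0.05. PCDHA11 lies at -1.07 in H82 and near 0 in H211.

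The beta sum in H82 was 3.16 ± 0.558 TPM with ORY-1001 and 5.48 ± 0.484 TPM in controls, a ratio of 0.576. Of the 9 tested beta genes 3 were called lower, where 23.9% of all tested genes were called lower in H82. All 9 had a negative log2 fold change, against a median of -0.02 over all genes. Of these 9, PCDHB5, PCDHB8, PCDHB10, PCDHB11, PCDHB13, PCDHB14 and PCDHB16 were below 1 TPM in every H82 library. Those genes passed the filter through H211 alone, so their common sign in H82 rests on low values. PCDHB14 was at 0.380, 0.260 and 0.298 TPM with ORY-1001 and 0.671, 0.716 and 0.669 TPM in controls. These values did not overlap but were below 1 TPM in every H82 library (log2 fold change -0.36, SE 0.0871, adjusted p = 0.00594), and a pseudocount of 5 ended the call (0.136).

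PCDHB4 was at 0.727, 0.400 and 0.629 TPM with ORY-1001 and 0.683, 1.19 and 1.12 TPM in H82 controls, and 1 control lay inside the treated range (log2 fold change -0.33, adjusted p = 0.0355). Its call was lost without H82 ORY-1001 replicate 2 (0.131) or 3 (0.0554) or H82 control replicate 2 (0.127) or 3 (0.111). PCDHB11 was at 0.289, 0.354 and 0.297 TPM with ORY-1001 and 0.454, 0.549 and 0.607 TPM in controls, with no overlap (log2 fold change -0.23, adjusted p = 0.0492). Its call held only without H82 control replicate 1 (0.0448) and was lost without any other of the 12 libraries (0.0506 to 0.141).

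Of the gamma genes neither tested one was called in H82. PCDHGC3 was at 3.27, 3.15 and 3.26 TPM with ORY-1001 and 3.597, 4.31 and 4.40 TPM in controls, below every control, with log2 fold change -0.27 and adjusted p = 0.0882, and it was called without H211 control replicate 3 (0.0334). PCDHGB1 averaged 0.888 ± 0.298 and 0.890 ± 0.247 TPM. The gamma sum was 5.58 ± 0.395 TPM with ORY-1001 and 6.91 ± 0.394 TPM in controls, a ratio of 0.807.

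The solitary sum in H82 was 8.29 ± 0.604 TPM with ORY-1001 and 10.05 ± 0.721 TPM in controls, a ratio of 0.825. Of the 5 tested solitary genes 4 had a negative log2 fold change. Called lower were 2 and higher 1, where 23.9% and 19.1% of all tested genes were called lower and higher. PCDH8, known in rodent neurons for removing N-cadherin from synapses, was the only member called higher, at 1.70 to 2.17 TPM with ORY-1001 and 1.05 to 1.66 TPM in controls (1.48-fold, log2 fold change 0.35, SE 0.114, adjusted p = 0.0277). Without H82 ORY-1001 replicate 1 (0.103) or 2 (0.0551) or H82 control replicate 1 (0.0832) or 3 (0.105) the call was lost.

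PCDH10 was at 1.22, 1.096 and 1.17 TPM with ORY-1001 and 1.72, 1.61 and 2.28 TPM in H82 controls, all treated libraries below the controls (log2 fold change -0.40, SE 0.134, adjusted p = 0.0311, a mean 1.61-fold lower). Its call was lost without H82 ORY-1001 replicate 1 (0.0571), 2 (0.0811) or 3 (0.0636) or H82 control replicate 3 (0.12). PCDH18, at 2.57 to 3.96 TPM with ORY-1001 and 3.69 to 4.82 TPM in controls, overlapped (log2 fold change -0.40, adjusted p = 0.0425). Its call was lost without H82 ORY-1001 replicate 1 (0.156) or 3 (0.112), H82 control replicate 2 (0.125) or 3 (0.127), H211 ORY-1001 replicate 1 (0.0523) or 3 (0.0509) or H211 control replicate 1 (0.051) or 3 (0.0524). PCDH9 averaged 1.81 ± 0.307 and 1.99 ± 0.252 TPM, and PCDH20 was at most 0.158 TPM in H82. Without the 4 libraries set apart by blood transcripts, PCDHA11, PCDHAC2, PCDHB14 and PCDH10 were still called in H82, while adjusted p was 0.122 for PCDHB4, 0.171 for PCDHB11, 0.164 for PCDH18 and 0.066 for PCDH8.

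**Figure D4:**
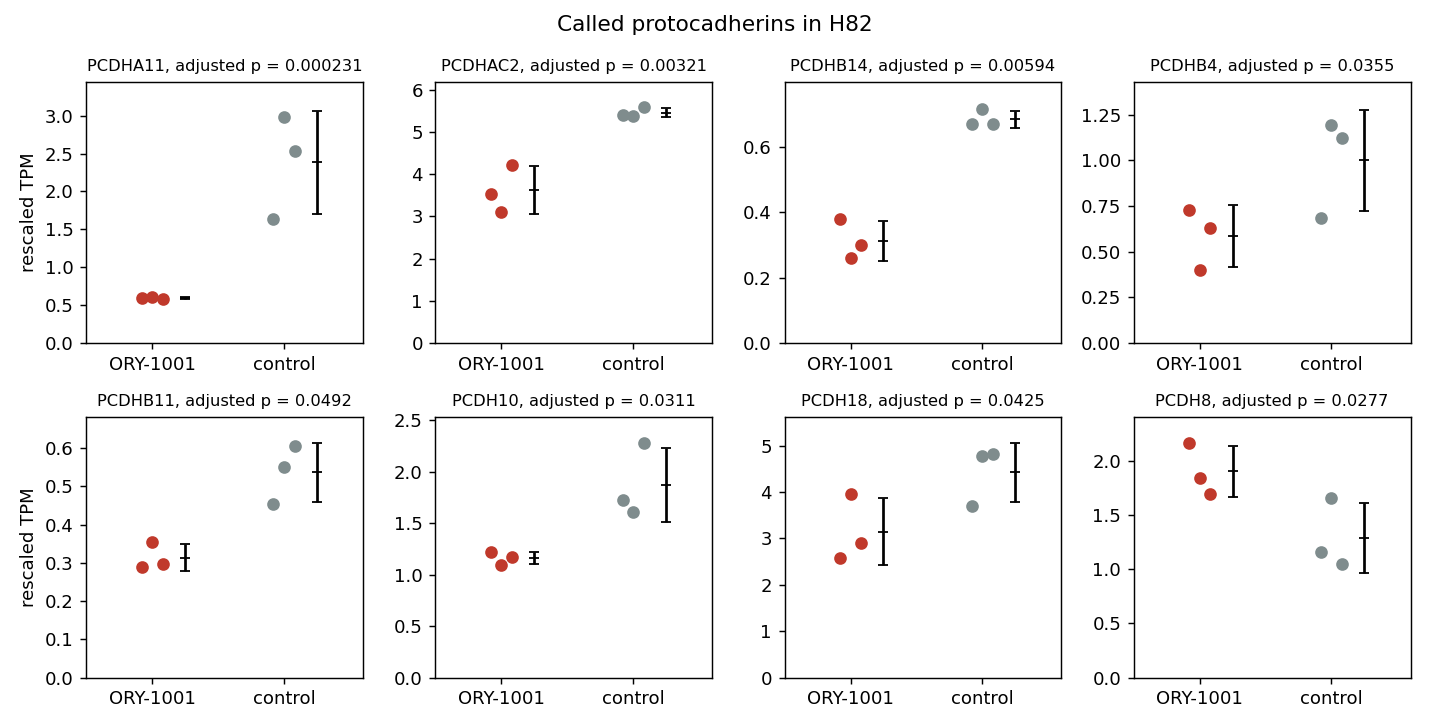
Rescaled TPM (y axes, from 0) of the 8 protocadherins called in H82, by library, with ORY-1001 left and control right; bars beside the points are mean ± SD (n = 3). PCDHA11 lies at 0.583 to 0.601 TPM with ORY-1001 and at 1.64 to 2.98 TPM in controls, and PCDH8 is the 1 gene with higher treated values.

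In H211 PCDHB4, PCDHB11 and PCDHB16, 3 of the 9 tested beta genes, and the gamma gene PCDHGC3 were called lower with ORY-1001, and the 2 most abundant beta genes were not called. The beta sum was 106.7 ± 1.59 TPM with ORY-1001 and 123.6 ± 7.81 TPM in controls, and 17 members had a mean of 1 TPM or more in either group. Of the 20 tested members 4 were called lower and 0 higher, 20% and 0%, where 9.61% and 8.95% of all tested genes were called lower and higher by limma and 18.6% in either direction. At an unadjusted p under 0.05, 5 were lower and 2 higher, against 16% and 15.3% of all genes. In 6 members all treated libraries lay below all controls and in 2 above, against 18.4% and 17% of all genes. The median log2 fold change was -0.05 over the members and -0.0021 over all genes, with 10 positive and 10 negative.

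PCDHB4 (chr5:141121799-141125623) was at 8.84, 9.21 and 8.78 TPM with ORY-1001 and 13.4, 12.6 and 12.2 TPM in H211 controls, with no overlap (log2 fold change -0.46, SE 0.114, adjusted p = 0.0159, a mean 1.42-fold lower). It lost its call without H211 ORY-1001 replicate 1 (0.0503) or H211 control replicate 1 (0.0606). PCDHB11 was at 5.41, 6.16 and 5.61 TPM with ORY-1001 and 7.36, 7.56 and 6.87 TPM in controls, again apart (log2 fold change -0.30, SE 0.0841, adjusted p = 0.0309). It lost its call without H211 ORY-1001 replicate 1 (0.105) or 3 (0.0848) or H211 control replicate 1 (0.0902) or 2 (0.101). PCDHB4 and PCDHB11 were the 2 members called lower in both lines.

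PCDHB16 was at 5.08, 4.52 and 5.08 TPM with ORY-1001 and 6.49, 7.16 and 5.55 TPM in H211 controls, without overlap (log2 fold change -0.32, adjusted p = 0.0423). Of 12 libraries left out in turn, its call held only without H211 control replicate 3 (0.0183) and otherwise lay at 0.0504 to 0.151. PCDHGC3 was at 4.09, 4.28 and 4.04 TPM with ORY-1001 and 5.64, 4.77 and 7.18 TPM in controls, a close set below a scattered one (log2 fold change -0.40, SE 0.117, adjusted p = 0.0346, a mean 1.42-fold lower). It lost its call without H211 ORY-1001 replicate 1 (0.0877), 2 (0.0647) or 3 (0.0887) or H211 control replicate 1 (0.0752) or 3 (0.0938).

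None of these 4 calls was kept without the 4 libraries set apart by blood transcripts, where the log2 fold change was -0.40 for PCDHB4 (adjusted p = 0.354), -0.22 for PCDHB11 (0.483), -0.18 for PCDHB16 (0.559) and -0.66 for PCDHGC3 (0.0572). That fit has 1 H211 control library, which is assumed to vary like the other groups.

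The 2 most abundant beta genes did not pass the test. PCDHB5 was at 54.3, 55.4 and 51.9 TPM with ORY-1001 and 61.7, 61.8 and 56.2 TPM in H211 controls (log2 fold change -0.15, SE 0.0723, adjusted p = 0.185), lower in every treated library. It held 50.5% of the beta sum with ORY-1001 and 48.5% in controls. PCDHB8 was at 16.8, 16.3 and 18.1 TPM with ORY-1001 and 21.6, 20.9 and 19.0 TPM in controls (log2 fold change -0.25, SE 0.0794, adjusted p = 0.0508), and was called without H211 control replicate 3 (0.0385). PCDHB14 was at 9.92, 9.92 and 9.68 TPM with ORY-1001 and 10.5, 9.65 and 8.45 TPM in controls. Of the 9 tested beta genes 7 had a negative log2 fold change in H211 and 2 a positive one. The positive ones were PCDHB14 (0.05, adjusted p = 0.763) and PCDHB12 (0.06, adjusted p = 0.845, both limma).

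The alpha genes of H211 gave no call. PCDHA11 was at 6.12, 6.21 and 5.43 TPM with ORY-1001 and 6.80, 6.44 and 4.64 TPM in H211 controls, overlapping (log2 fold change 0.0041, SE 0.156, adjusted p = 0.996). PCDHAC2 was at 0.649, 0.620 and 0.589 TPM with ORY-1001 and 0.385, 0.608 and 0.342 TPM in controls, with adjusted p = 0.318. The alpha sum was 14.3 ± 0.453 TPM with ORY-1001 and 12.9 ± 1.98 TPM in controls.

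Of the 5 tested solitary genes 0 were called in H211. At an unadjusted p under 0.05, 2 were higher, where 15.3% of all tested genes were. PCDH20 was at 10.7, 10.6 and 9.90 TPM with ORY-1001 and 8.89, 9.20 and 9.18 TPM in H211 controls (log2 fold change 0.18, SE 0.0797, adjusted p = 0.158), every treated library above the controls. PCDH10 was at 4.48, 4.34 and 5.54 TPM and 5.51, 6.20 and 4.26 TPM in the same order, overlapping (adjusted p = 0.592). PCDH9 lay at 1.94 to 2.07 TPM with ORY-1001 and 0.679 to 2.01 TPM in controls, and its log2 fold change of 0.49 had adjusted p = 0.0887, or 0.00302 without H211 control replicate 3. The solitary sum was 19.0 ± 0.158 TPM with ORY-1001 and 16.3 ± 0.377 TPM in controls.

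**Figure D5:**
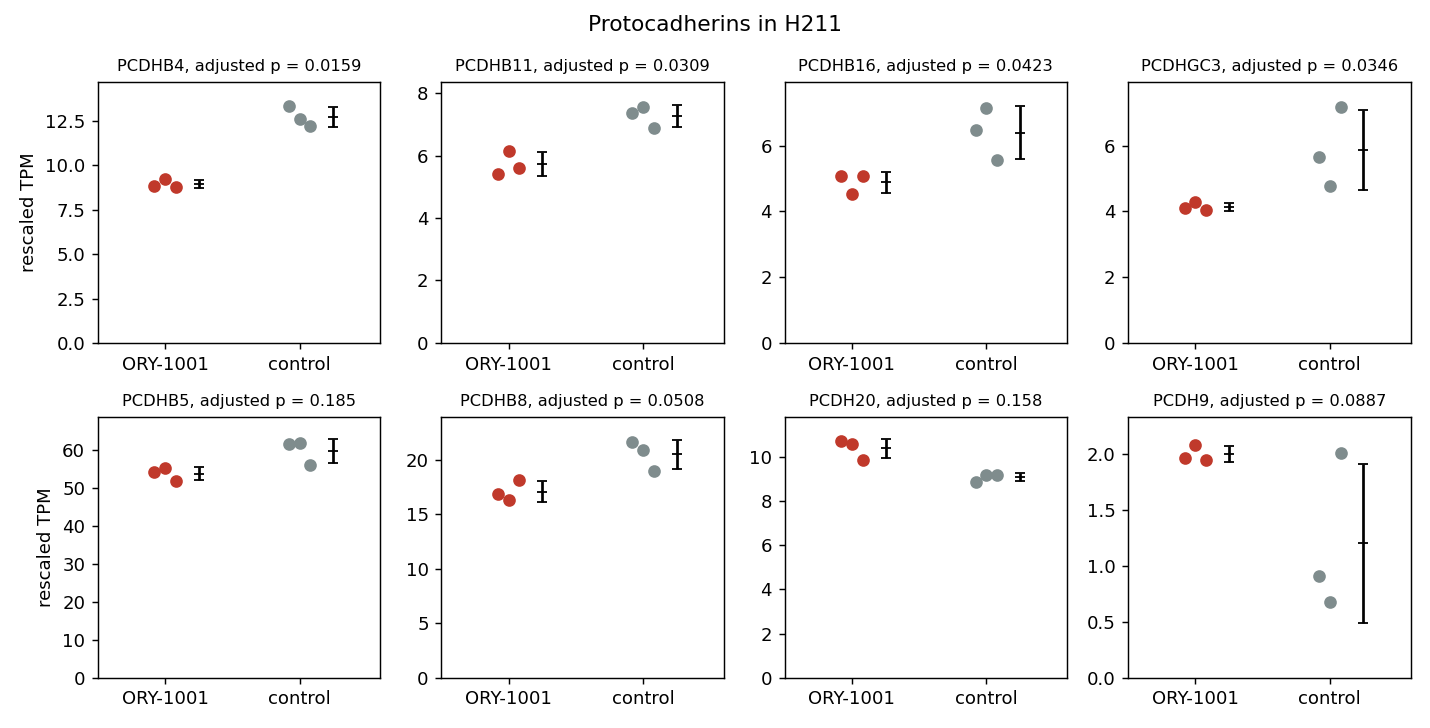
Rescaled TPM (y axes, from 0) of 8 protocadherins in H211, by library, with ORY-1001 left and control right; bars beside the points are mean ± SD (n = 3), and each panel gives the adjusted p. The upper row holds the 4 called genes, among them PCDHB4 at 8.78 to 9.21 TPM with ORY-1001 and 12.2 to 13.4 TPM in controls.

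The response itself differed between the lines for 3 members, all more positive in H211, 15% of 20, where 17.8% of all tested genes were called more positive, 14.3% more negative and 32.1% in either direction. None was called more negative, also at an unadjusted p under 0.05, where 4 were more positive and 0 more negative, against 22.8% and 19.3% of all genes. The difference of effects, H211 minus H82, was 1.07 for PCDHA11 (SE 0.22, adjusted p = 0.00361) and 0.66 for PCDHAC2 (SE 0.151, adjusted p = 0.00652) on the log2 scale, both called in 20 of 20 alternatives. For PCDHB14 it was 0.41 (SE 0.123, adjusted p = 0.0257). That call was lost without H82 ORY-1001 replicate 2 (0.055), H82 control replicate 2 (0.0515), H211 ORY-1001 replicate 1 (0.0533) or 2 (0.0516) or H211 control replicate 3 (0.0542), and without the 4 libraries set apart (0.0578). PCDHAC2 was below 1 TPM in every H211 library and PCDHB14 in every H82 library. A change at such levels is understated on this scale, so the size of these differences depends in part on the level. PCDHB4 and PCDHB11, lower in both lines, did not differ between the lines by the test of the difference. The differences were -0.13 (SE 0.161, adjusted p = 0.571) and -0.07 (SE 0.119, adjusted p = 0.688), and the standard errors leave room for a difference either way.

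Genes known to act on the clusters or related to them were followed as lists. Their counts stand against 23.9% of all tested genes called lower and 19.1% higher in H82, and 9.61% lower and 8.95% higher in H211; at an unadjusted p under 0.05 these shares were 27.4% and 22.6% in H82 and 16% and 15.3% in H211. CTCF and the cohesin complex hold enhancers and protocadherin promoters together. Of 11 genes listed for them, whose single roles may differ, 5 (45.5%) were lower and 0 higher with ORY-1001 in H82 (list median log2 fold change -0.24, against -0.02 over all genes). At an unadjusted p under 0.05, 6 were lower and 1 higher. RAD21, the kleisin subunit of cohesin, was at 116 ± 2.89 TPM with ORY-1001 and 206 ± 3.09 TPM in H82 controls (log2 fold change -0.83, adjusted p = 8.54e-09), and SMC1A, a subunit of its ring, at 80.2 ± 8.82 and 109 ± 5.58 TPM (log2 fold change -0.44, adjusted p = 0.00169). In H211 1 (9.09%) was lower and 0 higher (median -0.12), with 4 lower and 0 higher at an unadjusted p under 0.05. RAD21 was at 510 ± 5.52 TPM with ORY-1001 and 554 ± 5.26 TPM in H211 controls (log2 fold change -0.12, adjusted p = 0.0182), a call lost without H211 ORY-1001 replicate 2 (0.0517) or 3 (0.0519) or H211 control replicate 2 (0.0658).

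DNA methylation, H3K9 methylation, the HUSH complex and SMCHD1 are known to keep clustered promoters silent. Of 15 genes listed for them, whose single roles may differ, 9 (60%) were lower and 0 higher in H82 (median -0.29). Over all genes 23.9% were lower and 19.1% higher. At an unadjusted p under 0.05, 10 of the 15 were lower and 0 higher. DNMT3B, a de novo DNA methyltransferase, was at 2.13 ± 0.268 TPM with ORY-1001 and 4.53 ± 0.194 TPM in H82 controls (log2 fold change -0.82, adjusted p = 1.94e-05), and EHMT2, an H3K9 methyltransferase, at 40.8 ± 0.368 and 56.7 ± 2.54 TPM (log2 fold change -0.46, adjusted p = 0.00015). In H211 2 (13.3%) were lower and 0 higher (median -0.12), with 5 and 0 at an unadjusted p under 0.05. DNMT3B was at 5.33 ± 0.163 TPM with ORY-1001 and 7.34 ± 0.564 TPM in H211 controls (adjusted p = 0.0083). This call was not kept without the 4 libraries set apart by blood transcripts. The log2 fold change was -0.32 there, in a fit with 1 H211 control library. ATF7IP, a partner of the methyltransferase SETDB1, was at 28.2 ± 1.75 and 35.1 ± 1.51 TPM (adjusted p = 0.0362), a call lost without any 1 of H211 ORY-1001 replicates 1 (0.0775) and 3 (0.119) and H211 control replicates 1 (0.0909), 2 (0.115) and 3 (0.0505).

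Of 16 intracellular partners and processing enzymes, 4 (25%) were higher and 5 (31.2%) lower in H82 (median -0.12), near the 19.1% and 23.9% of all genes. PTK2, the focal adhesion kinase that binds protocadherin tails in mouse, was at 39.1 ± 1.64 TPM with ORY-1001 and 61.7 ± 2.87 TPM in H82 controls (log2 fold change -0.64, adjusted p = 1.35e-06). ABI2, a WAVE complex subunit, was at 42.8 ± 5.04 and 71.0 ± 3.81 TPM (log2 fold change -0.72, adjusted p = 4.08e-05). In H211 2 were higher and 2 lower (12.5% each, median 0.0047), where 8.95% and 9.61% of all genes were. PTK2 was at 66.3 ± 2.02 TPM with ORY-1001 and 74.6 ± 1.24 TPM in H211 controls (adjusted p = 0.0258), and lost its call without H211 ORY-1001 replicate 1 (0.0694) or 3 (0.0859) or control replicate 1 (0.0876) or 2 (0.0564).

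Of 17 other cadherins tested, 6 (35.3%) were lower and 1 (5.88%) higher in H82 (median -0.16), against 23.9% and 19.1% of all genes. DCHS1, the ligand of the giant cadherin FAT4, was at 0.652 ± 0.0175 TPM with ORY-1001 and 3.41 ± 0.315 TPM in H82 controls (log2 fold change -1.42, adjusted p = 8.29e-07), and CDH2, N-cadherin, at 1.53 ± 0.117 and 3.42 ± 0.28 TPM (log2 fold change -0.80, adjusted p = 7.83e-06). In H211 5 (29.4%) were lower and 1 (5.88%) higher (median -0.05), against 9.61% and 8.95%. CDH13, a cadherin held by a lipid anchor, was at 9.29 ± 0.85 TPM with ORY-1001 and 18.0 ± 2.08 TPM in H211 controls (log2 fold change -0.88, adjusted p = 0.00017), and the desmosomal DSG2 at 21.4 ± 1.38 and 28.99 ± 0.769 TPM (log2 fold change -0.42, adjusted p = 0.000279).

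Of 16 tested neighbours of the clusters on 5q31, 6 (37.5%) were higher and 2 (12.5%) lower in H82 (median 0.11), against 19.1% and 23.9% of all genes. The higher ones included HARS, a histidyl-tRNA synthetase, at 62.8 ± 1.36 TPM with ORY-1001 and 51.8 ± 0.833 TPM in H82 controls (log2 fold change 0.28, adjusted p = 0.000413). ARAP3, a GTPase-activating protein, was at 0.645 ± 0.211 and 2.48 ± 0.346 TPM (log2 fold change -1.08, adjusted p = 2.46e-05). In H211 1 was higher and 1 lower (6.25% each, median -0.01), against 8.95% and 9.61%. These were TAF7, a subunit of the general factor TFIID, at 113 ± 6.83 TPM with ORY-1001 and 91.4 ± 4.46 TPM in H211 controls (adjusted p = 0.0088), and SLC35A4, at 143 ± 9.15 and 163 ± 2.74 TPM (adjusted p = 0.0129). Without the 4 libraries set apart by blood transcripts both calls were lost, with log2 fold changes of 0.18 for TAF7 (adjusted p = 0.398) and -0.17 for SLC35A4 (0.187).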

How the data were processed

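The authors deposited 1 table of the signal of 56508 gene symbols in 12 columns, matched to samples by name. Column totals of this deposited signal ran from 967415 to 1111988, so it was taken as TPM rescaled between libraries; tests planned for plain TPM were kept. The submitters' processing notes name hg38, sleuth 0.30.0, Salmon 1.1.0, DESeq2, R 4.0.4, Subread 1.5.2 with featureCounts, STAR 2.5.2b and Trimmomatic 0.36, without the role or order of each. Counts were not analysed here, so depth and counting error are unknown.

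Genes at 1 or more in at least 3 libraries were kept (15456). One model of 4 group means was fitted to log2(TPM + 1) with limma 3.58.1 in R 4.3.3 (lmFit, eBayes with trend), with two-sided p-values, Benjamini-Hochberg adjustment over all kept genes and calls at adjusted p under 0.05. The fit was tested on simulated data. Contrasts were ORY-1001 against control in each line, the difference of these effects (H211 minus H82), and H211 against H82 controls. No replicate block was used: deviations of same-numbered libraries from their group means correlated at -0.0805 to 0.0449, against -0.0366 to 0.0655 for treated and control libraries of unlike number. These values show no shared deviation by number. They cannot show whether the cultures were set up in pairs, which is not said.

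Members and lists were chosen with earlier results of these data known. Values in every library are given for members with a group mean of 5 or more, or called with a ratio of means of 1.5 or more; from each list, up to 2 called genes with the smallest p per drug contrast are named, except 1 gene that is not reported here. Positions come from GENCODE 29 (GRCh38), which matched 73 of 73 symbols. Promoters come from RefSeq (GRCh38.p14). Starts can differ between these annotations.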

Additional observations from a re-analysis of the deposited data

Results flagged for a closer look

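The effect of ORY-1001 differed between the lines, by the test of the difference itself, for 3 protocadherins (limma, H211 minus H82, log2 scale). All 3 were more positive in H211, 15% of 20, where 17.8% of all tested genes were called more positive and 32.1% in either direction. The count is thus not above the share over all genes. For PCDHA11 the difference was 1.07, with log2 fold changes of 0.0041 in H211 and -1.07 in H82 and adjusted p = 0.00361. For PCDHAC2 it was 0.6604, from 0.17 in H211 and -0.49 in H82, with adjusted p = 0.00652. For PCDHB14 it was 0.4092, from 0.05 in H211 and -0.36 in H82, with adjusted p = 0.0257; this call was lost without any 1 of 5 libraries, at adjusted p up to 0.055. In H82 the 3 treated libraries lay below the 3 controls for each of these genes, and in H211 the groups overlapped for each. PCDHAC2 was below 1 TPM in every H211 library and PCDHB14 in every H82 library. The scale understates a change at such levels, so the size of these differences depends in part on the level.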

How the results depend on the processing

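Counts of called members were recomputed under up to 21 alternatives. In H82, 1 was higher and 7 lower; the higher count was 0 with a pseudocount of 0.1, with genes at 5 or more, in the 2-group fit and without the 4 libraries set apart by blood transcripts, and 0 to 1 when 1 library was left out, 0 without H82 ORY-1001 replicate 1 or 2 or H82 control replicate 1 or 3. The lower count was 3 with a pseudocount of 5, 4 without the 4 libraries and 3 to 7 with 1 library left out, 3 or 4 without any 1 of the H82 libraries other than control replicate 1. In H211, 0 were higher and 4 lower; the higher count was 1 with a pseudocount of 5, 2 with no filter and 0 to 1 with 1 library left out, 1 without H211 control replicate 3. The lower count was 1 with a pseudocount of 0.1, 1 with no filter, 2 after quantile normalization, 1 in the 2-group fit, 0 without the 4 libraries and 0 to 4 with 1 library left out, 0 to 2 without any 1 of the H211 libraries other than control replicate 3. For the difference between lines, 3 were higher and 0 lower; no filter gave 7 higher, a pseudocount of 5 gave 1 lower (PCDHB4), and leaving out 1 library gave 2 to 3 higher. For the controls, 15 were higher in H211 and 4 lower; no filter gave 29 and 8, genes at 5 or more gave 9 and 1, where fewer genes were tested, and leaving out 1 library gave 3 to 4 lower. With a replicate block, although the numbers were not found to pair libraries, H82 gave 0 higher and 4 lower and H211 gave 0 lower. The log2 difference of PCDH9 between the controls, -0.48, reversed to 0.01471 without the 4 libraries. Without these, the 5 lists held no call in H211 except 2 other cadherins called lower, and in H82 1 partner (4 with all libraries) and 0 other cadherins (1) were called higher. Except where fewer genes or libraries entered, the cause was not tested. PCDHA11 and PCDHAC2 kept their calls in H82 and in the difference under every alternative run. Depth is unknown, so members below 1 TPM cannot be given a counting error.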

Other observations

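Among members too low for the filter, PCDH7 and PCDH17, solitary protocadherins on chromosomes 4 and 13, were called higher with ORY-1001 in H211, 2 of 49 low members, in the fit over all 32093 genes above 0 in at least 1 library, which called 3.75% of those genes higher and 3.87% lower; they are named here after their values were seen. PCDH7 was at 0.859, 0.901 and 1.21 TPM with ORY-1001 and 0.225, 0.145 and 0.130 TPM in H211 controls (log2 fold change 0.77, SE 0.0694, adjusted p = 0.000104, limma). In H82 it was at 0.0684 to 0.158 TPM with ORY-1001 and 0.0280 to 0.0335 TPM in controls, without overlap and not called (adjusted p = 0.397). PCDH17 was at 0.397, 0.603 and 0.286 TPM with ORY-1001 and 0.142, 0.137 and 0.0943 TPM in H211 controls (log2 fold change 0.34, adjusted p = 0.0118). In H82 it ran the other way without being called, at 0.0176 to 0.0364 TPM with ORY-1001 and 0.0998 to 0.127 TPM in controls, without overlap (log2 fold change -0.12, adjusted p = 0.306), and the test of the difference between lines called both genes (adjusted p = 0.00145 for PCDH7 and 0.00907 for PCDH17). In both genes the treated and control libraries of H211 did not overlap.

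In H82 the same fit called 4 of 49 low members lower, 3 of them of the alpha cluster, where it called 11% of all 32093 genes lower. PCDHAC1, the other alpha C-type gene, was at 0.288 to 0.374 TPM with ORY-1001 and 0.718 to 0.795 TPM in H82 controls (adjusted p = 0.00636). PCDHA2 was at 0.524 ± 0.0731 TPM with ORY-1001 and 0.909 ± 0.0385 TPM in controls (adjusted p = 0.00668), and PCDHA3 at 0.222 ± 0.0749 and 0.497 ± 0.121 TPM (adjusted p = 0.0425). The gamma C-type gene PCDHGC4 was at 0.573 ± 0.17 TPM with ORY-1001 and 1.01 ± 0.19 TPM in controls (adjusted p = 0.0477). None of these 4 was called in H211 in that fit, where adjusted p was 0.554, 0.849, 0.587 and 0.6, and the test of the difference between lines called PCDHAC1 (adjusted p = 0.0161) and PCDHA2 (0.0294) and not PCDHA3 (0.0617) or PCDHGC4 (0.465).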
